A study of Rattus norvegicus with 3 samples.

Results

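The ribosomal RNA genes were described here through the HILS1 peaks that lie nearest to them. All peaks were taken whose nearest gene carried 1 of 5 names: Rn45s, Rn28s, Rn5-8s, LOC257642 and LOC310926. They numbered 149 of the 32731 peaks in the deposited list, which is 0.455% (95% Wilson interval 0.388 to 0.534), and they came from 123 peaks as originally called. They lay on chromosomes 1, 5, 6 and 14 of the rat genome rn5, and 23 of them had their centre within 5 kb of a start site while 126 lay farther away.

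HILS1, the linker histone of late spermatids, was mapped by ChIP sequencing in elongating/condensing spermatids of rats of 50-60 days. The labels give 2 libraries precipitated with HILS1 antibodies and 1 input library without antibody, all from the same cell type and age, and give no strain, treatment or genotype. Nuclei came from whole testis, so the spermatid label rests on the preparation, and a peak list holds no marker expression with which to check it. The authors joined both ChIP libraries into 1 list with 1 value per peak, so the depth of each library and the spread between the libraries are unknown here, and no test between groups was possible. The intervals given cover counting error only and treat peaks as separate, although peaks of 1 cluster share their source and segments cut from 1 called peak share its fold enrichment.

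In rodents the 18S, 5.8S and 28S ribosomal RNAs are cut from a single long precursor, the 45S RNA, which RNA polymerase I transcribes in the nucleolus from many tandem copies of 1 unit. Within the unit the small-subunit 18S sequence comes first, the short 5.8S sequence follows, and the large-subunit 28S sequence comes last. Some copies are active and others are silent and heterochromatic in somatic cells, and transcription falls away as spermatids condense their nuclei and replace their histones. Genome assemblies hold only a few of the copies, each placed where its flanking sequence allowed. A read from a repeated unit can be placed uniquely only where the copy in the assembly differs from the others.

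Only the chromosome 5 locus has a designed pair of oligos, which the study used as PCR primers for the peak at chr5:95166521-95170439, just before a 5.8S start site. They are shown because they are the sequences by which HILS1 at a ribosomal RNA locus was assayed apart from sequencing. Each is 22 bases long with 40.9% G and C, and the PCR values were not analysed here. Whether the oligos also match other copies of the unit was not checked, so the PCR need not be particular to this locus.
chr5_F: cctatcaactttcgatggtagt
chr5_R: ctcgaaagagtcctgtattgtt
The peak they were made for was 3918 bp long and had a fold enrichment of 118. Fold enrichment here compares the height of a called peak with the background that MACS, the peak caller, assumed. The values of the whole list look like ratios to a single background, so they need not correct for the input at each locus. The peak lay 5737 bp before the start site, was intergenic and was assigned no repeat.

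The 5 names held very unequal numbers of peaks. Rn5-8s, the gene of the 5.8S RNA, was nearest to 122 of the 149, with 17 within 5 kb and 105 farther away. LOC310926, a name whose 4 listed aliases are all synonyms of the 18S gene Rn18s in RefSeq, was nearest to 22, with 1 within 5 kb and 21 farther away. LOC257642, annotated as an rRNA promoter binding protein, was nearest to 3, and the 45S precursor gene Rn45s and the 28S gene Rn28s were nearest to 1 each. These 5 peaks all lay within 5 kb of their start sites. Around Rn5-8s the folds lay between 7.41 and 125 (median 22.2), and around LOC310926 between 20.4 and 125 (median 69.0). The name records which start site was closest, so most Rn5-8s peaks lay well away from the gene itself.

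Signed distances in the list place 6 start sites of Rn5-8s in this assembly. Chromosome 1 had 1 on each strand, at 13500215 (minus) and 13559374 (plus). Chromosome 5 had 2 on the plus strand, at 95174217 and 95176235. Chromosome 6 had 1 on the minus strand at 39271900, and chromosome 14 had 1 on the plus strand at 46862587. LOC310926 had a start on the plus strand of chromosome 14 at 46814997 and another on the minus strand of chromosome 1 at 13508161, and LOC257642 had 1 on the minus strand of chromosome 14 at 46829722. Peaks covered 74.6% of the 10 kb around the chromosome 6 start, 61.9% around LOC257642, 59.2% around LOC310926 on chromosome 14, 54.8% and 52.4% around the chromosome 5 starts, and 44.4% around Rn5-8s on chromosome 14. Cover was lower on chromosome 1, with 34.6% around the plus-strand 5.8S copy, 22.9% around the minus-strand one and 0% around LOC310926, whose 3 peaks lay 5976 to 10876 bp away. The windows of the 2 chromosome 5 starts overlap and share peaks, so their values are not separate. Cover counts only listed stretches. The minus-strand starts of Rn5-8s and LOC310926 on chromosome 1 lay inside the span of a called peak of 17.2 kb. Of that span 14.4 kb was not listed, so the low cover there does not show that no peak was called.

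The 23 peaks within 5 kb of a start site were high and mostly lay in ribosomal sequence or in a transcript. Their folds lay between 30.6 and 118, and the median on the log2 scale was 6.32 (95% interval 6.26 to 6.43), against 4.64 over the whole list. Of these peaks, 21 had a fold of at least 50 (91.3%, 73.2 to 97.6), a level that 643 peaks of the list reached (1.96%). An rRNA repeat was annotated for 11 of the 23 (47.8%, 29.2 to 67.0), against 34 peaks of the list (0.104%). None was annotated to LINE-1 (0 of 23, interval up to 14.3%), the repeat of 25398 peaks in the list (77.6%). The other 12 were 4 promoter peaks, 3 at transcription termination sites, 2 in exons, 1 in a non-coding transcript, 1 in the LTR repeat RMER6D and 1 without a repeat. The annotation gives no repeat to a peak in a transcript feature, so ribosomal sequence or LINE-1 under those 10 peaks would not be counted. The 0 for LINE-1 thus rests on the near peaks outside transcript features, fewer than the 23 used for its interval. Choosing peaks near rRNA gene starts also largely fixed the rRNA repeat and LINE-1 shares beforehand.

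**Figure D1:**
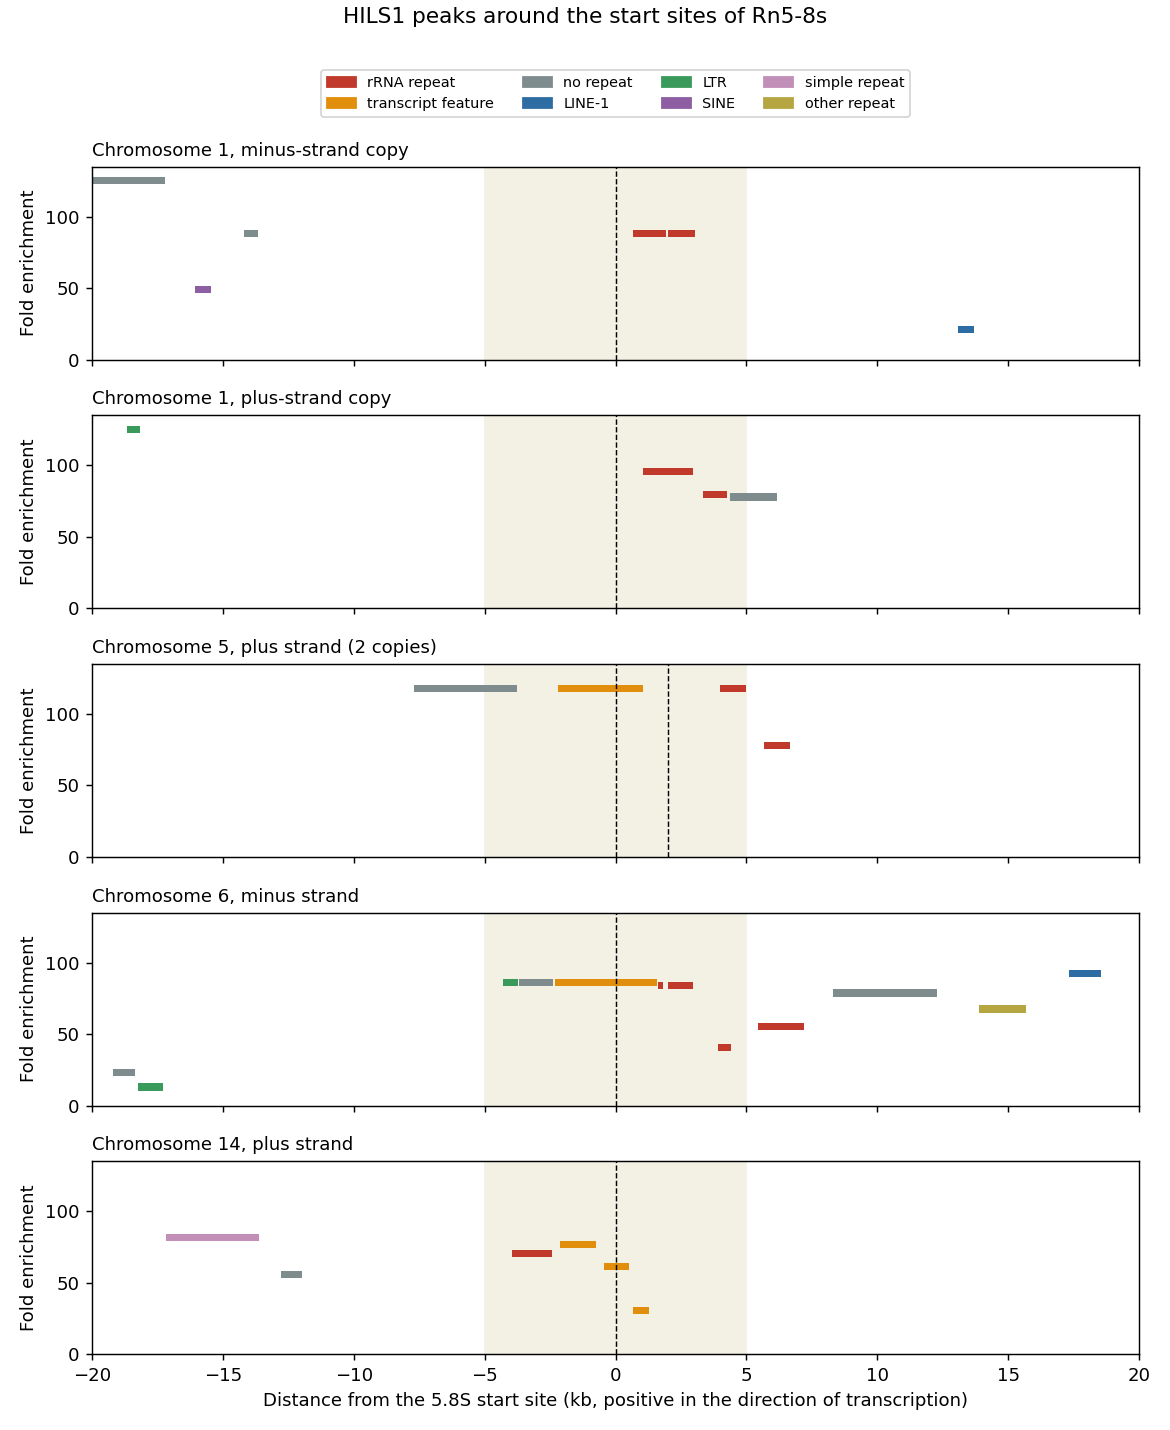
HILS1 peaks within 20 kb of the start sites of Rn5-8s, 1 panel per copy or pair of copies, with distance in kb along the direction of transcription on the x axis and fold enrichment on the y axis. Each bar is a peak drawn to its length and coloured by annotation, dashed lines mark start sites (those of chromosome 5 share a panel) and shading marks 5 kb to each side; the red large-subunit repeats lie to the right of the start on chromosomes 1, 5 and 6, and the single small-subunit repeat lies to its left on chromosome 14.

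On chromosome 1 the 4 peaks within 5 kb all lay in large-subunit (28S) repeats past a 5.8S start. The minus-strand copy had peaks at 13497170 to 13498196 and 13498290 to 13499555, both segments of a called peak with a fold of 88.0. The plus-strand copy had peaks at 13560420 to 13562340 with a fold of 95.4 and at 13562696 to 13563620 with 79.6. Distances from the start were 2532 and 1293 bp on the minus strand and 2006 and 3784 bp on the plus strand. Within 5 kb the listed peaks of both copies thus lay on the same side of the start, and none was in a transcript feature. The called peak of the minus-strand copy also had a listed segment on the other side, at 13513877 to 13514397. Between its listed segments 14.4 kb was not listed, so the list does not show which sides that called peak covered in full.

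On chromosome 5 the peak over the start was the promoter peak of Rn5-8s at 95172003 to 95175257, 3254 bp long with a fold of 118 and its centre 587 bp before the start. The large-subunit repeat past the start carried a segment of the same called peak, at 95178213 to 95179214, and a separate peak at 95179900 to 95180887 with a fold of 77.8. The listed segments of that called peak, with the one targeted by the primers, thus ran from before the start into the 28S repeat over 12.7 kb, of which 4.52 kb lay between listed segments. All 4 peaks of this 14.4 kb locus had a fold of at least 50, and peaks covered 63.8% of it.

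On chromosome 6 the promoter peak of Rn5-8s was the longest of the 6 within 5 kb, 3892 bp at 39270330 to 39274222, with a fold of 86.1. Before it, the same called peak went on through a segment without a repeat (1296 bp) and one in the LTR RMER6D (557 bp). Past the start, large-subunit repeats held segments of 217 and 972 bp with a fold of 84.3 and a peak of 523 bp with 40.7. That last one, centred 4169 bp past the start, was 1 of only 2 peaks within 5 kb below a fold of 50. The 6 peaks came from 3 called peaks, and the promoter segment alone crossed the start.

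Chromosome 14 carried all 5 gene names within 5 kb. Of its 10 peaks there, 8 carried transcript labels and 2 lay in small-subunit repeats. A transcript label takes the place of a repeat name, so large-subunit sequence under those 8 peaks would not be named. By its exon numbers the transcript LOC310926 reaches here from its own start to the 5.8S copy. Its peak in exon 2 of 7, at 46814032 to 46817965, was 3933 bp long with a fold of 77.8. Its second segment, at 46818013 to 46820430, was the peak of Rn45s, which lay in a small-subunit (18S) repeat within intron 2 of 6 of LOC310926. The Rn28s promoter peak, at 46825853 to 46827435, had a fold of 71.3 and its second segment lay over the termination site of LOC257642, 792 bp past that gene's start. The remaining peaks of LOC257642 had folds of 76.9 in exon 3 of 4 of the non-coding Rn28s transcript and 87.0 at that transcript's termination site. This stretch from LOC310926 to LOC257642 thus held precursor, 18S and 28S annotation with folds between 71.3 and 87.0.

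The 5.8S copy of chromosome 14 lay farther along and had the lowest single value near a start site. Its small-subunit repeat peak, at 46858644 to 46860169 in intron 6 of 6 of LOC310926, had a fold of 70.4. A peak in the last of that transcript's 7 exons, at 46860470 to 46861824, followed with 76.9, the promoter peak at 46862159 to 46863108 with 61.1, and the termination-site peak with 30.6, centred 969 bp past the start. The 2 peaks centred before the start were thus higher than the 2 centred past it, of which the promoter peak lay at 46 bp. None of the listed peaks past that start was annotated to a large-subunit repeat, and both carried transcript labels, which take the place of a repeat name.

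Peaks in ribosomal repeats followed the order of the unit wherever the nearest name was Rn5-8s. All 10 large-subunit repeat peaks lay past the start, at 1293 to 6317 bp, where the 28S sequence is found, and the single small-subunit repeat peak lay 3181 bp before it, on the 18S side. The order itself comes from the annotation of the assembly, and the peaks came from few copies. Over all 5 names, 15 large-subunit peaks ran from 37.0 to 119 in fold and the 2 small-subunit peaks were 70.4 and 77.8.

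The 126 peaks farther than 5 kb away were lower. Their median log2 fold was 4.47 (4.28 to 4.64), against 6.32 within 5 kb, a difference of 1.84 or 3.58-fold. Without chromosome 6 the medians were 6.28 and 5.25, a difference of 1.04 or 2.05-fold. In fold enrichment they ran from 7.41 to 125 and so overlapped the near peaks over their whole range. A fold of at least 50 was reached by 23 of the 126 (18.3%, 12.5 to 25.9), and by 39.1% of the far peaks without chromosome 6. Over the whole list 1.96% reached it, so the far peaks were lower than the near ones but above the list in this share. The far peaks were also shorter by 166.5 bp at the median, 859.5 bp (764 to 1015) against 1026 bp (924 to 1582), and these intervals overlapped. In all, 44 of the 149 peaks reached a fold of 50, and most of those far from a start were still close by: 12 of the 23 lay within 20 kb and 22 within 150 kb.

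**Figure D2:**
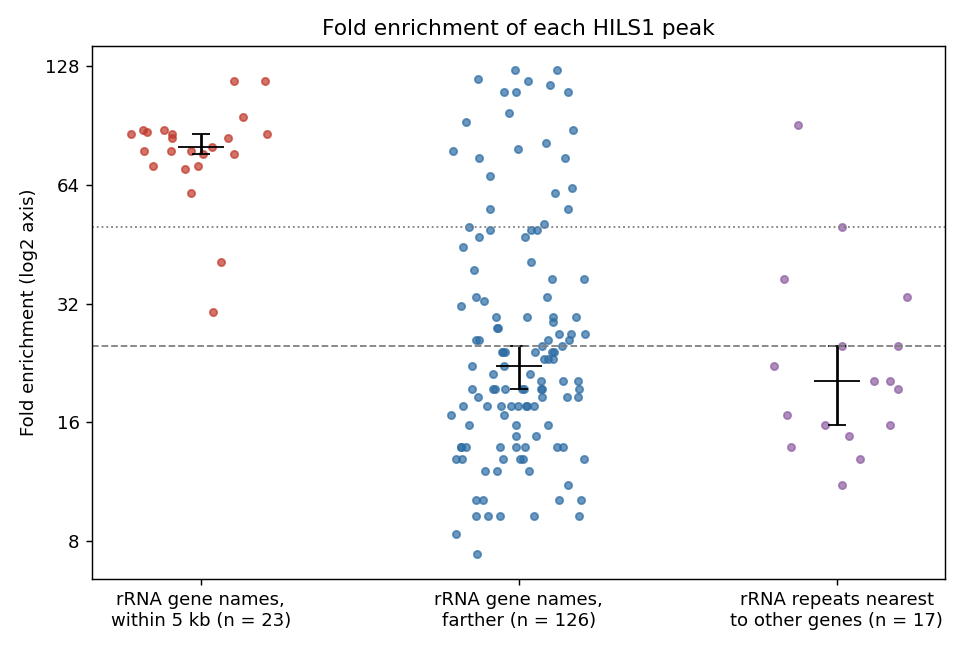
Fold enrichment of each peak on a log2 axis for 23 peaks within 5 kb of an rRNA start site, 126 farther away and 17 in rRNA repeats nearest to other genes, with points spread sideways at random. Thick marks show the median and its 95% interval, the dotted line a fold of 50 and the dashed line the median of the whole list (25.0); only 2 points of the first set lie under the dotted line, while most of the second set does.

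Far from a start site the peaks mostly lay in other sequence. No repeat was annotated for 51 of the 126, LINE-1 for 38 (30.2%, 22.8 to 38.7), an LTR for 17 and a SINE for 6, while rRNA repeats, all large-subunit, made up 6 (4.76%). Simple repeats accounted for 4, other repeats for 3 and a CpG island for 1. All but 2 were intergenic, and no promoter, exon or termination site was among them. The median log2 fold was 4.35 for the 38 LINE-1 peaks, 4.21 for the 51 without a repeat and 4.59 for the 17 in LTRs, whereas the 6 in rRNA repeats had folds of 37.0 to 119 with a median log2 of 5.95. These medians pool chromosomes of different level, since 5 of the 6 rRNA repeat peaks lay on chromosome 14 and 40 of the 51 without a repeat on chromosome 6. The far peaks without a repeat had a median fold of 15.7 on chromosome 6 but 55.6 on chromosome 14 (n = 7) and 88.0 on chromosome 1 (n = 3), with 1 peak at 118 on chromosome 5, against 62.0 for the far rRNA repeat peaks. Among the smaller classes, the CpG island peak and 2 of the 4 simple repeat peaks, at 75.0 and 81.5, were also high.

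**Figure D3:**
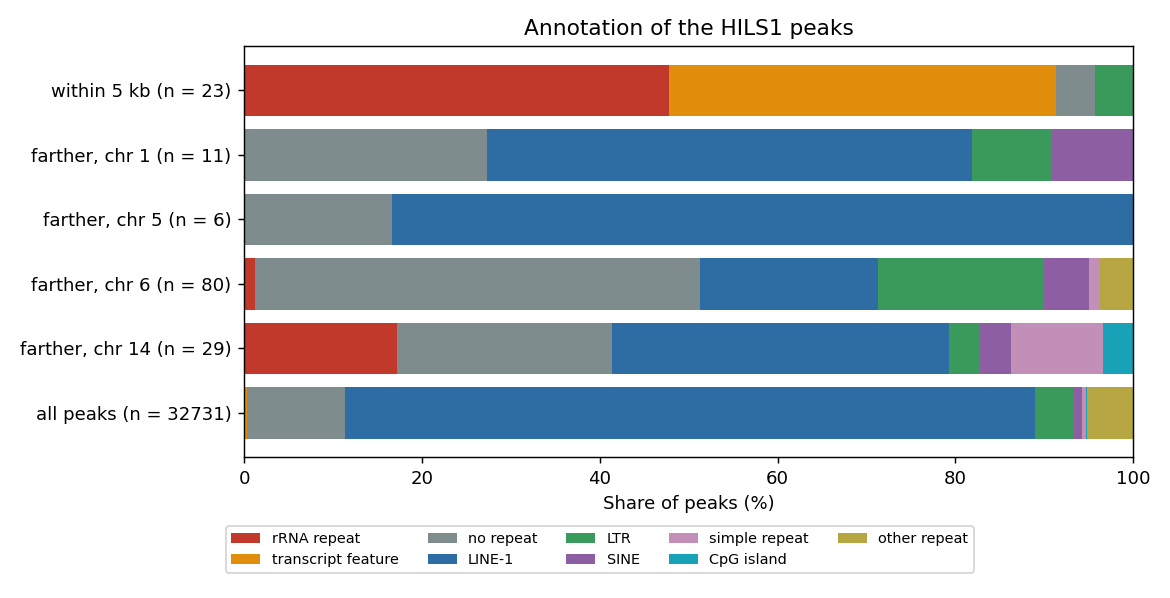
Share of peaks in percent by annotation, for the 23 peaks within 5 kb of an rRNA start site, for those farther away on each chromosome and for the whole list. Ribosomal repeats and transcript features fill most of the first bar, LINE-1 most of the bars of chromosomes 1 and 5 and of the whole list, and peaks without a repeat 50.0% of the chromosome 6 bar.

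Peaks on both sides of the 5 kb limit were high. Just inside it lay the LTR segment of chromosome 6 at 4012 bp (86.1), the chromosome 5 large-subunit peak at 4158 bp (77.8) and the chromosome 6 one at 4169 bp (40.7). Just outside lay peaks without a repeat at 5276 bp on chromosome 1 (77.8), 5737 bp on chromosome 5 (118) and 5976 bp on chromosome 1 (88.0), and then the large-subunit peak of chromosome 6 at 6317 bp (55.6). By distance, chromosome 6 is given apart from the others, and the difference between them was not tested. On chromosome 6 the median log2 fold was 6.41 within 5 kb (n = 6), 5.94 at 5 to 20 kb (n = 6), 4.28 at 20 to 100 kb (n = 31) and 4.14 beyond (n = 43). On chromosomes 1, 5 and 14 it was 6.28 (n = 17), 6.31 (n = 10), 6.10 (n = 12) and 4.56 (n = 24). The 12 peaks at 20 to 100 kb all lay on chromosome 14, and the interval of their median was wide (4.53 to 6.78). Spearman's rho between distance and fold was -0.58 over the 149 peaks, and -0.66, -0.67, -0.48 and -0.50 on chromosomes 1 (n = 15), 5 (n = 9), 6 (n = 86) and 14 (n = 39). These coefficients describe peaks that share loci, called peaks and libraries, and with 1 value per called peak rho was -0.50 overall (n = 123), -0.77 on chromosome 1 (n = 11), -0.41 on chromosome 5 (n = 7), -0.40 on chromosome 6 (n = 72) and -0.51 on chromosome 14 (n = 33).

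**Figure D4:**
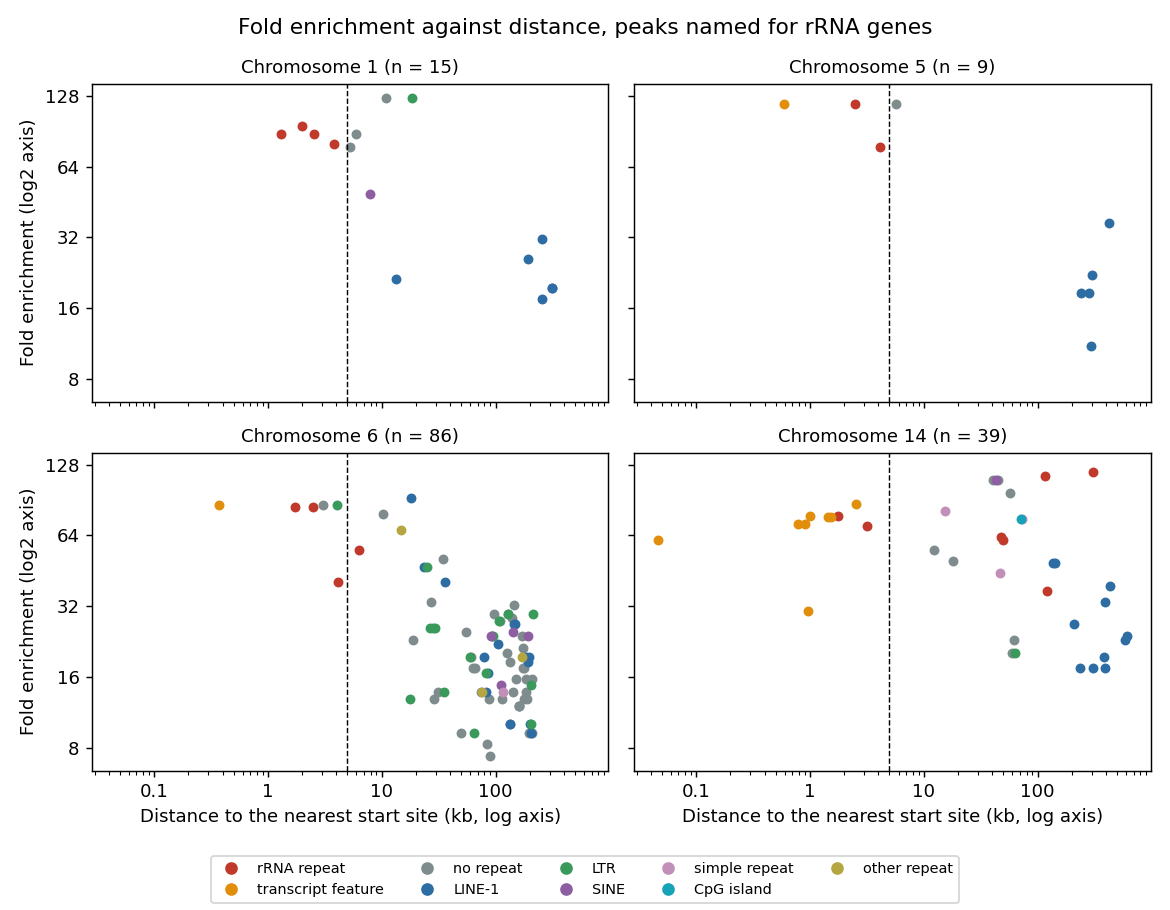
Fold enrichment (log2 axis) against distance of the peak centre to the nearest rRNA gene start in kb (log axis), 1 panel per chromosome, with colour for annotation and a dashed line at 5 kb. Peaks left of the line lie at 30.6 to 118; on chromosome 6 most peaks beyond 20 kb lie under 32, while chromosome 14 keeps high peaks, several of them red rRNA repeats, beyond it.

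The members formed 10 clusters when neighbours up to 100 kb apart were joined, and 4 of these, 1 on each chromosome, contained the peaks within 5 kb of a start. No cluster contained a peak nearest to any other gene, which the choice of peaks by nearest gene name largely fixed beforehand. On chromosome 1 the cluster with the 5.8S copies spanned 79.0 kb and had 10 peaks with a median fold of 88.0, 8 of them at 50 or more. Its highest were the 2 listed segments of a called peak at 125, a stretch of 3235 bp without a repeat and one of 504 bp in the LTR RNLTR3-int, which lay 20.1 kb apart. Its lowest was a LINE-1 peak at 21.3. The second cluster of chromosome 1 had 5 peaks, all in LINE-1, between 17.6 and 31.5.

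Chromosome 14 had most of the high peaks far from a start site, 13 of 23. Its main cluster spanned 191 kb with 29 peaks, a median fold of 71.3 and 21 peaks at 50 or more. Upstream of LOC310926, 5 large-subunit repeat peaks lay far from any named start site. Their folds were 63.0 at 47474 bp, 61.1 at 49233 bp, 115 at 116076 bp, 37.0 at 120564 bp and 119 at 307390 bp. The last of these stood alone, 597 bp long at 46507309 to 46507906, and had the highest fold of all peaks in this chromosome's clusters. The lowest fold of the main cluster was 20.4. The rRNA repeats upstream lie beyond the annotated genes, so ribosomal sequence on this chromosome reached past the units that carry gene names.

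Past Rn5-8s on chromosome 14, the 9 peaks more than 200 kb away were all in LINE-1, in a cluster of 7 with folds of 17.6 to 38.9 and a pair at 23.2 and 24.1, with a median log2 of 4.53, against 4.75 over all LINE-1 peaks of the list. The same held for chromosome 5, where the 5 peaks beyond its 14.4 kb locus were all in LINE-1, 4 of them in a cluster at 11.1 to 22.2 and 1 alone at 37.0. On chromosome 1 the 6 far LINE-1 peaks ran from 17.6 to 31.5. The list names the nearest start site, and these peaks carried an rRNA gene name at distances over which no other gene's start lay nearer. On these 3 chromosomes LINE-1 made up 22 of the 46 far peaks.

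Chromosome 6 contributed 86 of the 149 peaks (57.7%), which is 5.61% (4.56 to 6.87) of the peaks on that chromosome. The 86 filled a single cluster of 419 kb, from 39066025 to 39484775, around 1 start site. A fold of 50 was reached by 5 of its 80 far peaks (6.25%), against 1.96% of the list. Folds of the 80 lay between 7.41 and 92.6, with a median log2 of 4.21 (3.98 to 4.47). The highest, at 92.6, lay in the LINE-1 element Lx7 at 17948 bp past the start, and the lowest, at 7.41, was a peak without a repeat 89646 bp before it. No repeat was annotated for 40 of the 80 (50.0%), LINE-1 for 16 (20.0%) and an rRNA repeat for 1. Of the 80, 65 lay before the start with a median fold of 17.6 (15.7 to 19.4) and 15 past it with 25.9 (10.2 to 55.6), and these intervals overlapped. The median log2 fold of the far peaks was close on chromosome 5, at 4.34 (n = 6). It was higher on chromosomes 1, at 4.98 (n = 11), and 14, at 5.62 (n = 29), and these differences were not tested.

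The far chromosome 6 peaks were set beside other crowded regions of the list, windows of 1 Mb with at least 50 peaks. In those windows the 6242 peaks nearest to other genes had a median log2 fold of 4.21, a LINE-1 share of 29.6% and no repeat in 38.4%. The median of the chromosome 6 peaks was the same at this precision, and their LINE-1 share was lower by point value, with 95% intervals that overlapped. Outside chromosome 6 the 63 member peaks had a median log2 fold of 5.93 (5.21 to 6.26). Of these, 34 (54.0%) reached a fold of 50, against 1.96% of the list. The height of the ribosomal RNA loci as a whole therefore depended on whether the chromosome 6 cluster was counted.

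Another 17 peaks lay in rRNA repeats but nearest to other genes, and most were low. Their folds ran from 11.1 to 90.7 with a median log2 of 4.35 (3.98 to 4.64), against 6.32 (5.98 to 6.46) for the 17 rRNA repeat peaks at the named genes, a difference of 1.97 or 3.91-fold. Their median length was 669 bp against 987 bp. A fold of 50 was reached by 2 (11.8%, 3.29 to 34.3), against 1.96% of the list and 15 at the named genes. The 2 were a 5S repeat peak and a large-subunit peak. The nearest gene of the 5S peak, 123111 bp away, was the insulin receptor gene Insr on chromosome 12 (90.7). That of the large-subunit peak was the cadherin gene Cdh8 on chromosome 19 (50.0). The 5S RNA is transcribed by RNA polymerase III from its own genes, outside the 45S unit.

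The remaining 15 were nearest by name to Ctss (33.3), Shox2 (15.7), LOC500035 (16.7), Oma1 (22.2), Pros1 (13.9), Stx19 (14.8), Vom2r57 (20.4), RGD1306750 (11.1 and 20.4), Vom2r76 (2 at 25.0) and Erap1 (4 between 13.0 and 37.0). By repeat, 9 were small-subunit peaks at 11.1 to 37.0, while the 7 large-subunit peaks, Cdh8 included, ran from 13.9 to 50.0. Dense windows held 11 of the 17 and 4 of the 17 at the named genes. The names give the nearest start site only, and of the 17 peaks just the one named for LOC500035 lay closer to its gene than that of Insr, at 5619 bp. The median of the rRNA repeat peaks nearest to other genes was below that of the whole list (4.64), and that of the ones at the named genes was above it. How many copies of each sequence the animals carry relative to the assembly was not measured, so more copies and more HILS1 per copy cannot be told apart, and the input reads over these loci were not analysed here.

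Further columns of the list bear on the height of these peaks. The peak score, which rises with the negative log10 of the p-value, stood at 3100, a high value that many peaks share, for 17 of the 23 near peaks (73.9%) and 19 of the 126 far ones (15.1%), against 8.76% of the list. All 36 had a false discovery rate of 9.45%, above the list's median of 7.64%, so the peaks with this score did not have the lowest rates. Within members the rate ran from 6.82% to 27.6%. Segments were missing from the list in 5 of the 123 called peaks of the rRNA loci (4.07%) and in 1.02% of all called peaks, which is counted from the numbering of the segments. Some stretches of these loci that belonged to a called peak were thus absent from the list, and what removed them was not tested.

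The genes of proteins that transcribe, process and silence ribosomal DNA were counted in the same way. Of 15 genes of RNA polymerase I and its factors found in RefSeq, 3 were nearest to a peak and none had one inside. These were Rrn3, the initiation factor of RNA polymerase I (14 peaks, the closest 185 kb away), Twistnb, a polymerase I subunit gene (13), and Polr1e, another subunit gene (1). Over all RefSeq protein-coding genes 19.6% were nearest to a peak and 5.48% had one inside, so both counts are near the background.

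Nucleolar processing genes gave 2 of 20 nearest to a peak. Wdr12, a protein of large-subunit maturation, had the single peak inside its gene, an intronic LINE-1 peak with a fold of 45.4, and Dkc1, the pseudouridine synthase of box H/ACA particles, was nearest to 11. Among 7 genes of ribosomal DNA silencing, the methyltransferase-like Rrp8 was nearest to 2 and the demethylase Kdm2a to 1, and neither had a peak inside. Of 304 genes with symbols starting in Rps or Rpl and a digit, 15 were nearest to a peak (4.93%, against the 19.6% of all protein-coding genes), most often Rps24 (87 peaks, 25 in LINE-1, median fold 15.7), and the only 2 with a peak inside, Rps6kc1 and Rps6ka6, encode kinases and no ribosomal protein. The symbol rule thus takes in more than ribosomal proteins, and the difference between the shares was not tested. No peak nearest to any of these listed genes reached a fold of 50, a level that only 1.96% of the whole list reached, and the difference was not tested.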

How the data were processed

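HILS1 ChIP sequencing was done in elongating/condensing spermatids, with 2 ChIP libraries and 1 input. According to the study's methods, the authors placed reads uniquely on rn5, dropped duplicates and ran MACS on either replicate with the input as control. Regions shared by both replicates and 100 to 4000 bp long received HOMER annotation. Tools named in the submitters' notes are FastQC, Trim Galore, Bowtie2, SAMtools, bedtools and HOMER. Per the file headers the deposited fold enrichment is a linear ratio, the deposited score rises with −log10 of the p-value, and the deposited FDR (false discovery rate) is a percent. All 149 folds, like all 32731 of the list, were whole multiples of 0.926 (within 0.02 of a unit), as a single background would give. A fold over a single background does not correct for the input at each locus. The authors' list holds 1 value per peak for both replicates, so depth, precision between replicates and tests are not available here. A multi-copy unit aligned uniquely can gain or lose reads, and this was not tested.

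Peaks were grouped by nearest gene name and by the distance of their centre to the start site (5 kb). Start sites were taken where at least 2 signed distances agreed within 3 bp. Shares have 95% Wilson intervals and medians order-statistic intervals, for counting error only. A fold of at least 50 stood in for a test, and a called peak is one that MACS called, at any fold. The text names all members, all peaks within 5 kb, the highest and lowest far peak of each cluster, genes nearest to rRNA repeats, and list genes with a peak inside or the most nearest peaks. Other peaks and genes given singly were chosen after their values were seen. Members and gene lists were chosen with earlier results of these data known. RefSeq held 3 of the 5 members, and gene symbols came from its table. Start-site recovery and intervals were tested on simulated data. Scripts ran on Python 3.11.15 with pandas 2.3.3, numpy 2.4.6, scipy 1.17.1 and, for figures, matplotlib 3.10.9.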

Additional observations from a re-analysis of the deposited data

How the results depend on the processing

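The limits are those of 1 list. It has no value per replicate, so leaving out a replicate was not possible, and no paired analysis was possible because the result comes from no test. Values rest on few loci and on called peaks split into segments, and no rn5 sequence was used here. Across 11 alternatives, 82 of 102 recomputed values stayed inside the 95% interval of the value reported (counts of peaks, within 1.5 times), and 20 did not.

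The distance limit moved the most. With 2 kb, 12 peaks lay within it, 25.0% of them in rRNA repeats, and the rRNA share farther away was 10.2%. With 100 kb, 82 lay within and 67 farther, and the near peaks had an rRNA share of 17.1%, a LINE-1 share of 9.76% in place of 0, a median log2 fold of 5.66 and 51.2% at a fold of at least 50, against 2.99% farther away, where LINE-1 rose to 44.8%. Without chromosome 6, 46 peaks lay farther away, with 47.8% in LINE-1, 10.9% in rRNA repeats, a median log2 fold of 5.25 and 39.1% at a fold of at least 50. Keeping the longest segment of each called peak left 15 near peaks, and counting peaks less than 6000 bp apart once gave the near peaks a median log2 fold of 6.43. Among peaks whose false discovery rate was 10% or less, the far peaks had a median log2 fold of 4.70 and a median length of 1020 bp. With the fold limit at 32, 28.6% of the far peaks passed it. The near peaks stayed above the far ones in median log2 fold under each of these settings.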

Other observations

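The large-subunit repeat named for Cdh8 on chromosome 19 stood in a row of high peaks. The 6 peaks listed there between 5812692 and 5827336 had folds of 106 and 68.5 (2 peaks) in simple repeats, 50.0 and 107 in CpG islands and 50.0 in the ribosomal repeat, which was only 166 bp long. This region was looked at after its values were seen.

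The numbers that the peak caller gave to its peaks run on without a gap in some ribosomal clusters. In the chromosome 1 cluster with the 5.8S copies 7 of 7 numbers were in the list, in the chromosome 5 locus 2 of 2, in the main chromosome 14 cluster 23 of 29 and in the chromosome 6 cluster 72 of 104 (69.2%). Over the whole list 24679 of 46580 numbers were present (53.0%). In the other clusters of several peaks they were 4 of 7 on chromosome 1, 4 of 6 on chromosome 5, and 7 of 9 and 2 of 4 on chromosome 14. Numbers were counted from the first to the last listed peak of a cluster, so both ends were always present. The 2 of 2 could thus not have been lower, and small clusters lean to high shares. What set these shares was not tested.

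Some called peaks of the chromosome 1 cluster were spread out. The called peak at 88.0 spanned 17.2 kb between its listed segments' outer ends, of which 14.4 kb was not listed, and the one at 125 spanned 23.8 kb, of which 20.1 kb was not listed.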
